A study of Nicotiana tabacum with 9 samples.

Results

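Growth-regulating factors are plant transcription factors with a QLQ domain (glutamine, leucine, glutamine) and a WRC domain (tryptophan, arginine, cysteine). They were taken from the gene table of tobacco young leaves as all genes whose description names both domains and whose value was at least 1 in at least 3 libraries. The table held 69500 genes, of which 33188 passed this level and were tested. The 2 domains were described together for 24 genes, 8 of which passed and 16 of which did not. The groups were 3 genotypes of Nicotiana tabacum with 3 libraries each. M21 and G27 are lines from work on NtAN3 and leaf size, and the cultivar NC82, grown for flue-cured leaf, served as their reference. Young leaves were sampled in the squaring period, in which the flower bud appears. The labels do not say which change of NtAN3 either line carries, which promoter drives it, or whether a line is 1 clone. They also do not say whether the libraries of a genotype were taken from different plants, so the spread behind each p-value may be technical.

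In Arabidopsis, growth-regulating factors promote cell proliferation in young leaves. The WRC domain binds DNA, and the QLQ domain binds the co-activators of the SS18 family, of which AN3 (also called GIF1) is the best known. The microRNA miR396 cuts most messages of the family in Arabidopsis and so confines their activity to the dividing part of the leaf. Which Arabidopsis gene each tobacco member corresponds to is not given in the sources used here, so members are called by identifier. Tobacco is an allotetraploid whose related genes share sequence, and how the reads were divided among members is not known.

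On the first principal component (43.9% of the variance) NC82 scored between -42.9 and -39.6 and both lines between 12.3 and 32.3. The second (20.8%) separated M21 (19.5 to 25.2) from G27 (-31.9 to -22.7). On the third (11.6%) M21 replicate 3, G27 replicate 1 and NC82 replicate 1 scored between -22.9 and -16.0, and the other 6 libraries between 2.1 and 18.9. These 3 libraries are called the libraries that stand apart below. The leaf label was met by summed chlorophyll a/b binding proteins of 31601 to 38952 in M21, 31435 to 37435 in G27 and 31104 to 36424 in NC82.

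The family was expressed at low to middle levels. Values are the deposited normalized expression, and their comparison between genes assumes that they are per length, which the table does not state. Nitab4.5_0001033g0050 averaged 8.19 over the 9 libraries and Nitab4.5_0001494g0010 averaged 7.11, which placed them above 61.4% and 57% of all tested genes. Next came Nitab4.5_0001426g0010 at 2.71, Nitab4.5_0005880g0050 at 2.34 and Nitab4.5_0003970g0050 at 2.1. The lowest were Nitab4.5_0004686g0010 at 1.16, Nitab4.5_0001424g0060 at 1.09 and Nitab4.5_0005167g0090 at 1.04, each above only 3.18% to 5.04% of tested genes. The ranges over the 9 libraries of the leading pair overlapped (6.51 to 12.25 and 5.96 to 8.33), as did those of the next 3 members (2.2 to 3.36, 2.04 to 3.01 and 1.65 to 2.49) and those of the lowest 3 (0.75 to 1.81, 0.79 to 1.28 and 0.22 to 2.33). The description of Nitab4.5_0005880g0050 alone also names a protein family of the Ycf2 type.

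**Figure D1:**
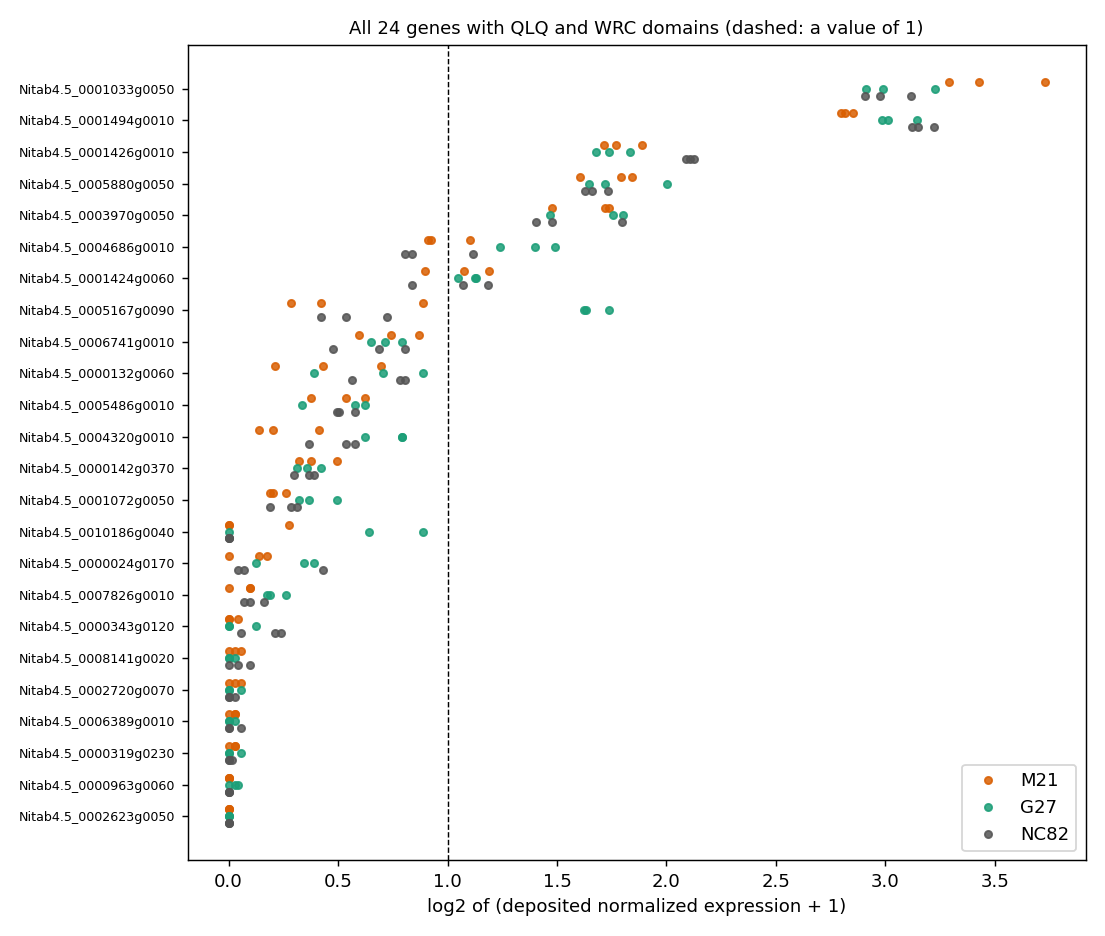
Levels of all 24 genes with QLQ and WRC domains, with log2 of the deposited normalized expression plus 1 on the x axis and 1 gene per row, ordered by mean. Each point is 1 library of M21, G27 or NC82, and the dashed line marks a value of 1. The 8 upper genes reached 1 in at least 3 libraries, and Nitab4.5_0005167g0090 did so in the 3 G27 libraries only.

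The level filter itself bears on the lowest members. Nitab4.5_0005167g0090 reached 1 in all 3 G27 libraries and in 0 of the M21 and NC82 libraries, so it entered only through the genotype in which it was high and had to differ. Nitab4.5_0004686g0010 reached 1 in 3 G27 libraries, 1 M21 library and 1 NC82 library, so it too would not have passed without G27. The other 6 members reached it in at least 2 libraries of every genotype. Just below the filter lay Nitab4.5_0000132g0060, with a highest value of 0.85, and Nitab4.5_0006741g0010, with a highest value of 0.83. For this reason the counts of called members below describe these 8 genes and are not support for a change of the family.

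The summed level of the family overlapped between the genotypes. The 8 members summed to 25.5, 23.4 and 28.7 in the M21 libraries, 28.2, 26.5 and 24.9 in the G27 libraries, and 26, 24.9 and 23.8 in the NC82 libraries. No genotype lay apart from the others in this sum. The leading pair held 63.3% ± 1.17 of this sum in M21, 54.9% ± 1.13 in G27 and 60.3% ± 1.57 in NC82 (SD, n = 3 each). Nitab4.5_0005167g0090, which entered through G27 alone, held 0.942% to 2.96% in M21, 7.38% to 8.8% in G27 and 1.36% to 2.5% in NC82. Of the sum of the other 7 members the leading pair held 64.4% ± 1.42 in M21, 59.8% ± 1.47 in G27 and 61.5% ± 1.59 in NC82 (SD, n = 3 each), and the ranges of G27 and NC82 then overlapped. The ranges of M21 and NC82 overlapped both for all 8 members and for these 7. In bulk leaf RNA, fewer cells of a type and less RNA per cell cannot be told apart.

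**Figure D2:**
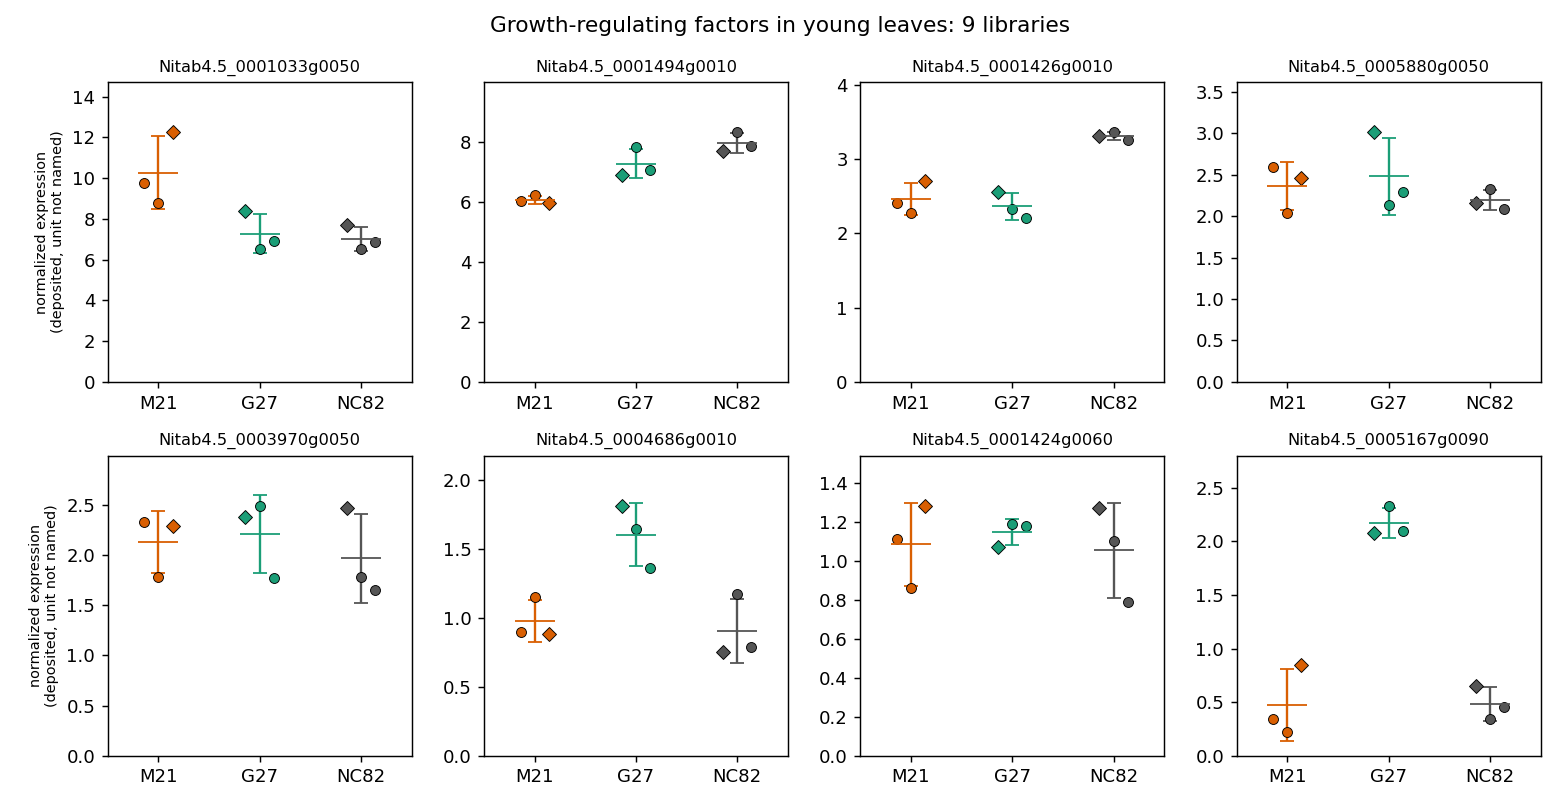
Deposited normalized expression (y axis, unit not named) of each of the 8 growth-regulating factors in M21, G27 and NC82. Points are libraries, diamonds are the libraries that stand apart on the third principal component, and bars show the mean and SD of 3 libraries. Nitab4.5_0001426g0010 lies higher in all NC82 libraries than in any other, and Nitab4.5_0005167g0090 lies at 2.08 to 2.33 in G27 and at most 0.85 elsewhere.

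M21 against NC82 asked how the family stood in this line relative to the cultivar. One of the 8 members was called higher, Nitab4.5_0001033g0050, and 2 were called lower, against calls for 24.3% of all tested genes (13.0% higher and 11.3% lower). The rise was in the most expressed member in M21, and the falls were in the most expressed member in NC82 and in the third by level. The median log2 change of the members was 0.04, against 0.03 for all tested genes.

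Nitab4.5_0001033g0050 stood at 9.76, 8.8 and 12.25 in the M21 libraries and at 7.68, 6.51 and 6.87 in the NC82 libraries. Every M21 library was above every NC82 library, and M21 replicate 3 was the highest of all. The means were 10.3 ± 1.78 in M21 and 7.02 ± 0.599 in NC82 (SD, n = 3 each), a ratio of 1.46. It rose by a log2 change of 0.48 (SE 0.12), with a limma adjusted p of 0.015. The call was lost without M21 replicate 3, with a log2 change of 0.36 and a limma adjusted p of 0.055, and without NC82 replicate 2, where the log2 change was 0.44 and the limma adjusted p was 0.062. Without the 3 libraries that stand apart the log2 change was 0.42 and the limma adjusted p was 0.019.

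Nitab4.5_0001494g0010 went the other way. It stood at 6.03, 6.22 and 5.96 in the M21 libraries and at 7.7, 8.33 and 7.88 in the NC82 libraries, with no overlap. The means were 6.07 ± 0.135 in M21 and 7.97 ± 0.324 in NC82 (SD, n = 3 each). It fell by 0.34 on the log2 scale (SE 0.07), with a limma adjusted p of 0.0064. This was called in all 18 alternatives, with adjusted p from 0.0042 to 0.036.

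Nitab4.5_0001426g0010 stood at 2.41, 2.28 and 2.7 in the M21 libraries, against 3.31, 3.36 and 3.25 in the NC82 libraries. The NC82 values lay close together and above all M21 values. It fell by 0.32 on the log2 scale (SE 0.09), with a limma adjusted p of 0.022. The ratio of the means was 0.745. The call was lost without any of M21 replicates 1 and 2 and NC82 replicates 1, 2 and 3 (limma adjusted p of 0.053 to 0.076), and without the libraries that stand apart (0.056), while the log2 change stayed between -0.36 and -0.28.

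The other 5 members were not called in M21. Their log2 changes lay between -0.03 and 0.08. The 95% intervals were -0.22 to 0.38 for Nitab4.5_0003970g0050, -0.18 to 0.32 for Nitab4.5_0005880g0050 and -0.22 to 0.33 for Nitab4.5_0004686g0010. Those of Nitab4.5_0001424g0060 (-0.25 to 0.30) and Nitab4.5_0005167g0090 (-0.38 to 0.32) were as wide, so changes of this size in either direction were not detectable here. Ranges did not overlap for the 3 called members only, while the same held for 40.3% of all tested genes (22.4% higher and 18.0% lower).

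**Figure D3:**
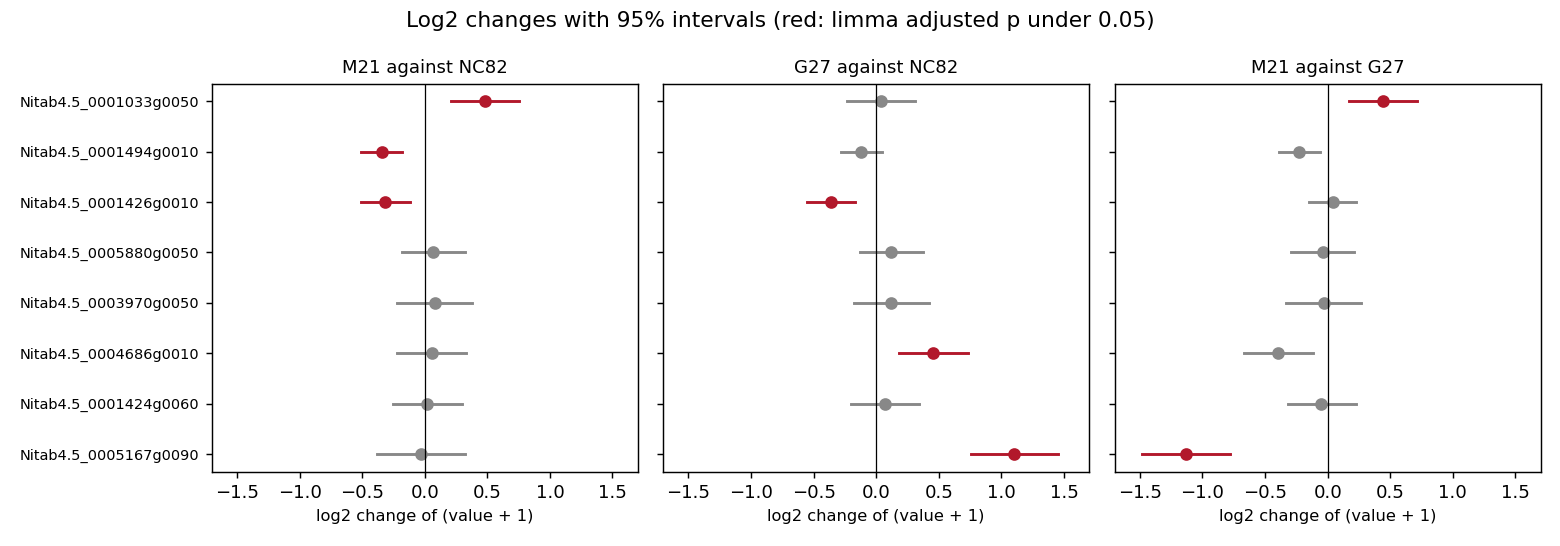
Log2 changes of the value plus 1 (x axis) for the 8 members in each of the 3 comparisons between genotypes. Points are limma estimates, lines are 95% intervals, and red marks an adjusted p under 0.05. The longest change is that of Nitab4.5_0005167g0090, at 1.10 in G27 against NC82 and -1.13 in M21 against G27.

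In G27 against NC82, 2 members were called higher and 1 lower, against calls for 13.9% of all tested genes (7.87% higher and 6.05% lower). Both that rose were among the 3 lowest members. Of them, 1 had passed the filter through G27 alone, and the other would not have passed without G27. The member that fell was Nitab4.5_0001426g0010. The median log2 change was 0.10 for the members and 0.05 for all tested genes. This comparison and the one of M21 share the NC82 libraries.

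Nitab4.5_0005167g0090 stood at 2.08, 2.33 and 2.1 in the G27 libraries and at 0.65, 0.34 and 0.45 in the NC82 libraries. The G27 values lay far above the others and close together. The means were 2.17 ± 0.139 in G27 and 0.48 ± 0.157 in NC82 (SD, n = 3 each), a ratio of 4.52. It rose by a log2 change of 1.10 (SE 0.16), with a limma adjusted p of 0.00074. With a pseudocount of 0.1 in place of 1 the log2 change was 2.00 (limma adjusted p = 0.0054). With no filter on low values the limma adjusted p was 0.0025, where 9.17% of genes were called. Because it passed the level filter through G27 alone, its p-values describe a gene that had to differ and are no support.

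Nitab4.5_0004686g0010 stood at 1.81, 1.64 and 1.36 in the G27 libraries, against 0.75, 1.17 and 0.79 in the NC82 libraries. The groups did not overlap, though NC82 replicate 2 came close. The means were 1.6 ± 0.227 in G27 and 0.903 ± 0.232 in NC82 (SD, n = 3 each). It rose by a log2 change of 0.45 (SE 0.12), with a limma adjusted p of 0.033. Because it would not have passed the level filter without G27, its p-values are not read as support. The call was lost in 6 alternatives. It did not hold without G27 replicate 1 or 2 or NC82 replicate 1 or 3 (log2 changes of 0.40 to 0.44, limma adjusted p of 0.082 to 0.11), in a fit of the 2 genotypes alone (0.052), or without the libraries that stand apart (log2 change 0.34, limma adjusted p = 0.25, where 11.0% of all tested genes were called). With a pseudocount of 0.1 its log2 change was 0.78.

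Some genes of DNA replication were also higher in G27. The MCM genes, whose products form the helicase of DNA replication, summed to 115 to 137 in G27 and to 86.8 to 98.5 in NC82, and 11 of 20 tested rose and 0 fell, against calls for 7.87% (higher) and 6.05% (lower) of all tested genes. One of them, a gene with the Mcm2 domain (Nitab4.5_0002113g0010), had the profile most like that of Nitab4.5_0004686g0010 over the 9 libraries, with a Pearson r of 0.960. The description of this Mcm2 gene also names a SNARE associated Golgi protein. Its r was picked as the highest among all tested genes outside the family and includes the difference between genotypes. The next gene, a carbohydrate kinase of the PfkB type, had an r of 0.959. Without the libraries that stand apart 2 of the 20 MCM genes rose, where 11.0% of all tested genes were called in either direction, and their median log2 change was 0.26, against 0.37 with all libraries. Among other genes of dividing cells in G27 against NC82, the core histones that were called mostly rose, while cyclins and kinesins went both ways. Of 83 core histones 27 rose and 4 fell (32.5% higher and 4.82% lower). Without the libraries that stand apart 19 core histones rose and 4 fell. Of 57 cyclins 2 rose and 6 fell, and of 58 kinesins 2 rose and 3 fell, with all libraries. The part of dividing cells in the rises of Nitab4.5_0004686g0010 and Nitab4.5_0005167g0090 was not tested.

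Nitab4.5_0001426g0010 stood at 2.56, 2.33 and 2.2 in the G27 libraries, against the NC82 values of 3.25 to 3.36 given above. Again no G27 library reached the NC82 range. It fell by 0.36 on the log2 scale (SE 0.09), with a limma adjusted p of 0.018. Its 95% interval was -0.55 to -0.17. The call was lost without G27 replicate 3 or NC82 replicate 2 or 3 (limma adjusted p of 0.054 to 0.072) and without the libraries that stand apart (0.059), while the log2 change in these fits stayed between -0.40 and -0.32.

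The leading pair was not called in G27. Nitab4.5_0001033g0050 stood at 8.37, 6.52 and 6.93 in the G27 libraries, within reach of the NC82 values, with a log2 change of 0.04 (95% interval -0.23 to 0.31). Nitab4.5_0001494g0010 stood at 6.92, 7.84 and 7.08 in G27, with a log2 change of -0.12 (95% interval -0.28 to 0.05). The other 3 members had log2 changes of 0.07 to 0.12, and their ranges overlapped with NC82. Nitab4.5_0005880g0050 stood at 3.01, 2.13 and 2.29 in G27, at 2.59, 2.04 and 2.46 in M21, and at 2.16, 2.32 and 2.09 in NC82. Nitab4.5_0003970g0050 stood at 2.38, 2.49 and 1.77 in G27, at 2.33, 1.78 and 2.29 in M21, and at 2.47, 1.78 and 1.65 in NC82. These members varied as much within a genotype as between genotypes. So did Nitab4.5_0001424g0060, at 1.07 to 1.19 in G27, 0.86 to 1.28 in M21 and 0.79 to 1.27 in NC82. Ranges did not overlap for the same 3 members that were called, while the same held for 30.6% of all tested genes (19.2% higher and 11.4% lower).

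The lines were also compared with each other. In M21 against G27, 1 member was called higher and 1 lower, against calls for 11.9% of all tested genes (5.47% higher and 6.40% lower). Nitab4.5_0005167g0090 stood at 0.34, 0.22 and 0.85 in the M21 libraries, against 2.08 to 2.33 in G27. The highest M21 library, replicate 3, stayed below every G27 library. It was lower in M21 by a log2 change of -1.13 (SE 0.16), with a limma adjusted p of 0.0014, but this gene passed the level filter through G27 alone and had to differ. With a pseudocount of 0.1 the log2 change was -2.15.

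Nitab4.5_0001033g0050 was higher in M21, at 8.8 to 12.25, than in G27, at 6.52 to 8.37, with a ratio of the means of 1.41. The ranges were apart by less than the spread within M21. Its log2 change was 0.44 (SE 0.12), with a limma adjusted p of 0.041. The call was kept in 9 of 18 alternatives. It was lost without M21 replicate 1 or 3, G27 replicate 2 or 3, or NC82 replicate 2 or 3 (log2 changes of 0.32 to 0.47, limma adjusted p of 0.057 to 0.13). A fit of the 2 lines alone (0.065), a fit with no filter (0.08) and limma without the mean trend (0.051) also lost it.

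Another pair of members had ranges that did not overlap but were not called. Nitab4.5_0001494g0010 was lower in every M21 library (5.96 to 6.22) than in any G27 library (6.92 to 7.84), with a log2 change of -0.23 and a limma adjusted p of 0.077. Nitab4.5_0004686g0010 stood at 0.9, 1.15 and 0.88 in M21 and at 1.36 to 1.81 in G27, with a log2 change of -0.40 and a limma adjusted p of 0.065. It was called by limma without the mean trend, with an adjusted p of 0.042, but it would not have passed the level filter without G27. Among all tested genes 28.6% had ranges that did not overlap (12.9% higher and 15.7% lower). The other 4 members had log2 changes of -0.05 to 0.04. Nitab4.5_0001426g0010, lower than NC82 in both lines, had a log2 change of 0.04 between them (95% interval -0.15 to 0.23).

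The leading pair ran against each other over the 9 libraries. The ratio of Nitab4.5_0001033g0050 to Nitab4.5_0001494g0010 was 1.41 to 2.06 in M21, 0.832 to 1.21 in G27 and 0.782 to 0.997 in NC82. All M21 libraries lay above all others. Over the 9 libraries the Pearson r of their log2 values was -0.89, which includes the difference between genotypes and values scaled to a common sum. Within each genotype the library that stands apart had the highest value of the first (12.25, 8.37 and 7.68 in M21, G27 and NC82) and the lowest of the second (5.96, 6.92 and 7.7). The part of whatever sets those libraries apart was not tested. Without them the changes in M21 against NC82 were 0.42 and -0.35 on the log2 scale (limma adjusted p of 0.019 and 0.036), where 19.7% of all tested genes were called. In M21 against G27 without them 8.46% were called, among them Nitab4.5_0001033g0050 and Nitab4.5_0005167g0090, which had to differ. Nitab4.5_0001494g0010 was not called there (log2 change -0.25, limma adjusted p = 0.18).

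**Figure D4:**
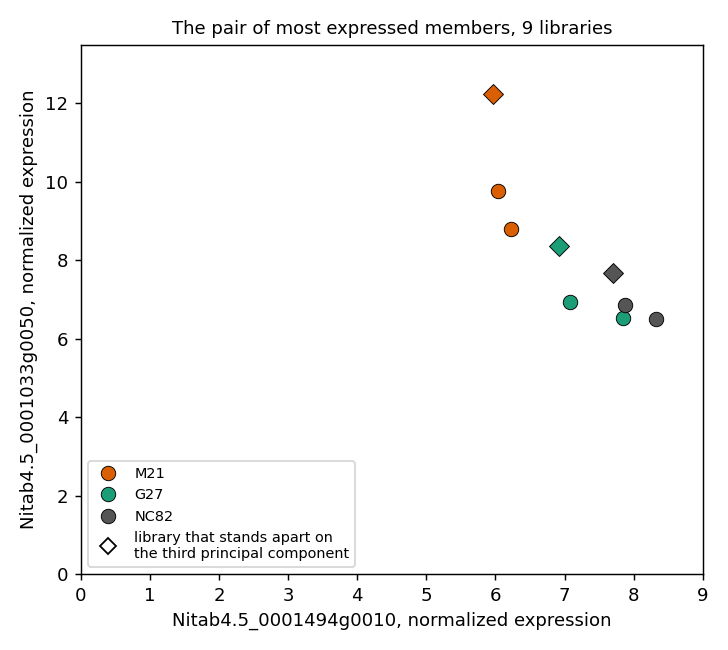
Deposited normalized expression of Nitab4.5_0001494g0010 (x axis) and Nitab4.5_0001033g0050 (y axis) in each library, coloured by genotype, with diamonds for the libraries that stand apart on the third principal component. The M21 libraries lie at 5.96 to 6.22 and 8.8 to 12.25, apart from G27 and NC82, and within each genotype the diamond is the uppermost and leftmost point.

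The genes with the most similar profiles over the 9 libraries were named by Pearson r of log2 values, as a description over all 33188 tested genes. For Nitab4.5_0001033g0050 these were a translation initiation factor of the SUI1 type, Nitab4.5_0006685g0010 (r = 0.989), and a basic leucine zipper factor, Nitab4.5_0001592g0050 (r = 0.988). For Nitab4.5_0001494g0010 they were a TauE-like membrane protein, Nitab4.5_0000434g0080 (r = 0.990), and a leucine-rich repeat kinase, Nitab4.5_0002815g0060 (r = 0.987). The profile of Nitab4.5_0001426g0010 was closest to an amino acid transporter, Nitab4.5_0004385g0030 (r = 0.992), and a B-box zinc finger gene, Nitab4.5_0012714g0010 (r = 0.991), which stood at 1.21 to 1.8 in M21, 1.21 to 1.48 in G27 and 2.79 to 3.18 in NC82. Nitab4.5_0005167g0090 was closest to 2 genes of unknown function, Nitab4.5_0001735g0170 (r = 0.984) and Nitab4.5_0008227g0010 (r = 0.981). For Nitab4.5_0004686g0010 the other was a carbohydrate kinase of the PfkB type, Nitab4.5_0001794g0010 (r = 0.959). Between members, Nitab4.5_0004686g0010 and Nitab4.5_0005167g0090, the pair that rose in G27, had an r of 0.75, and Nitab4.5_0001424g0060 and Nitab4.5_0003970g0050, which were never called, an r of 0.68. All these values share the same libraries and the same scaling.

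Below the filter the family had 16 more genes. Of these, 1 was listed at 0 in all libraries (Nitab4.5_0002623g0050), 5 stayed below 0.1, and 10 reached 0.1 or more in some library. Their sum was 1.99 to 2.67 in M21, 3.12 to 4.31 in G27 and 2.74 to 3.32 in NC82. Every M21 library lay below every G27 and NC82 library for the sum of these low genes, but only just for NC82 (2.67 against 2.74). In a limma fit with no filter, 15 of the 16 could be fitted and 1 was called in any comparison, where 16.0%, 9.17% and 7.12% of 49699 genes were called in M21 and in G27 against NC82 and between the lines. It was Nitab4.5_0004320g0010, at 0.15, 0.1 and 0.33 in M21, against 0.73, 0.54 and 0.73 in G27. It stood at 0.49, 0.45 and 0.29 in NC82, between the lines. Its log2 change in M21 against G27 was -0.48, with a limma adjusted p of 0.017. Another low gene, Nitab4.5_0010186g0040, was listed at 0 in all NC82 libraries, at 0, 0 and 0.21 in M21 and at 0.56, 0.85 and 0 in G27, so 1 G27 library was also at 0. Both were named after their values were seen. At such levels a value may rest on few reads.

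The co-activators that bind the QLQ domain are the SS18 family, of which 4 of 6 genes were tested. Nitab4.5_0007901g0050 stood at 5, 5.8 and 4.32 in M21, at 760.1, 604.42 and 620.86 in G27, and at 0.34, 0.25 and 0.25 in NC82, so G27 held far more of this message than all 8 growth-regulating factors together (24.9 to 28.2 in the same libraries). Nitab4.5_0000319g0250, the next by level, stood at 20.77 to 26.83 in M21, 23.71 to 26.07 in G27 and 22.67 to 25.67 in NC82 and was not called, nor was Nitab4.5_0000768g0010. Nitab4.5_0001993g0030 was lower in M21 (6.62 ± 0.223, SD, n = 3) than in G27 (8.75 ± 0.364) and NC82 (8.38 ± 0.737), with limma adjusted p of 0.016 and 0.019, and in neither comparison was it called without the libraries that stand apart. Genes with a WRC domain but no QLQ domain, many of which also carry the JmjC domain of histone demethylases, are relatives by the DNA-binding domain. Of 9 tested, 1 rose in M21 (Nitab4.5_0003600g0010, 3.67 ± 0.806 in M21 and 2.4 ± 0.19 in NC82, SD, n = 3 each) and 0 fell. Of all tested genes 13.0% were called higher and 11.3% lower there. Without the libraries that stand apart limma called 0 of the 9, with 2 at an unadjusted p under 0.05, where 19.7% of all tested genes were called. In G27 against NC82, 0 rose and 1 fell (Nitab4.5_0003541g0030, at 1.27, 0.81 and 0.92 in G27 and at 2.25, 1.77 and 2.1 in NC82), against 7.87% (higher) and 6.05% (lower) of all tested genes. In M21 against G27 limma called none of the 9, with 1 at an unadjusted p under 0.05, and called 1 after median-ratio scaling. Of all tested genes 11.9% were called in that comparison, and 12.2% after median-ratio scaling.

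Regulators that act beside the family in leaves are read against all tested genes, of which 13.0% were called higher and 11.3% lower in M21, and 7.87% higher and 6.05% lower in G27, against NC82. In M21 against G27, 5.47% were called higher and 6.40% lower. After median-ratio scaling 25.3%, 14.7% and 12.2% were called in either direction in these 3 comparisons. Without the libraries that stand apart the shares were 19.7%, 11.0% and 8.46%. Of 35 SBP-box factors, which time the change from juvenile to adult leaves, 0 rose and 9 fell in M21 (median log2 change -0.06). Of them, Nitab4.5_0001538g0080 stood at 10.7 ± 0.886 in M21, 23 ± 1.6 in G27 and 19.3 ± 1.59 in NC82 (SD, n = 3 each). In G27, 1 rose and 4 fell. Of 10 YABBY factors, which mark the lower side of leaves, 0 rose and 3 fell in M21, and by limma 0 of 10 were called in G27, with 3 at an unadjusted p under 0.05. By limma 3 of them were lower in M21 than in G27, among them Nitab4.5_0001349g0100 at 6.21 ± 1.09 in M21 and 15.6 ± 4.78 in G27 (SD, n = 3 each). After median-ratio scaling 5 of 10 fell in M21.

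Of 38 TCP factors, some of which in Arabidopsis raise miR396, 3 rose and 3 fell in M21, and 2 rose and 1 fell in G27. In M21 this is 7.89% in each direction, below the 13.0% higher and 11.3% lower of all tested genes. In G27 it is 5.26% higher and 2.63% lower, below the 7.87% and 6.05% of all tested genes. After median-ratio scaling 1 rose and 3 fell in G27, so the direction with more calls turned, and without the libraries that stand apart 1 rose and 3 fell in M21. Nitab4.5_0000365g0240 fell in both lines, at 1.97 ± 0.246 in M21, 2.83 ± 0.39 in G27 and 5.35 ± 0.553 in NC82 (SD, n = 3 each). Of 6 KNOX factors, whose class I members keep meristem cells undifferentiated, 3 rose and 0 fell in M21 and 2 rose and 0 fell in G27. Without the libraries that stand apart limma called 2 in M21 and 0 in G27, where 3 had an unadjusted p under 0.05. After median-ratio scaling 1 rose in G27. The sum of KNOX factors was 128 to 136 in M21, 125 to 134 in G27 and 117 to 120 in NC82.

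Of 60 SNF2-related helicases, a class that includes the chromatin remodellers AN3 binds in Arabidopsis, 0 rose and 2 fell in M21, and 1 rose and 2 fell in G27. Of all tested genes 13.0% were called higher and 11.3% lower in M21 against NC82. In G27 against NC82 these shares were 7.87% and 6.05%. In M21 against G27 limma called 0 of the 60 helicases, with 1 at an unadjusted p under 0.05. The helicase Nitab4.5_0006542g0020 fell in both lines, to 2.2 in M21 and 2.2 in G27, against 4.01 in NC82. In cell cycle lists, 1 of 20 MCM genes rose in M21 and 4 were lower in M21 than in G27 (6 after median-ratio scaling, and 1 without the libraries that stand apart). Of all tested genes 6.40% were called lower in M21 than in G27. Of 83 core histones 13 rose and 4 fell in M21, where 15.7% higher is near the 13.0% of all tested genes. In G27 27 rose and 4 fell, which is 32.5% higher, against 7.87% of all tested genes. Of 57 cyclins 2 rose and 13 fell in M21, and 2 rose and 6 fell in G27. Among 12 CDK inhibitors, which hold back the cell cycle, 1 was higher and 3 lower in M21, and 0 higher and 2 lower in G27. Of 32 expansins, which loosen cell walls, 2 rose and 16 fell in M21, and 0 rose and 6 fell in G27. Without the libraries that stand apart 8 core histones rose and 5 fell in M21, where 19.7% of all tested genes were called in either direction. In G27 without them 19 core histones rose and 4 fell, and 1 cyclin rose and 2 fell, where 11.0% were called.

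**Figure D5:**
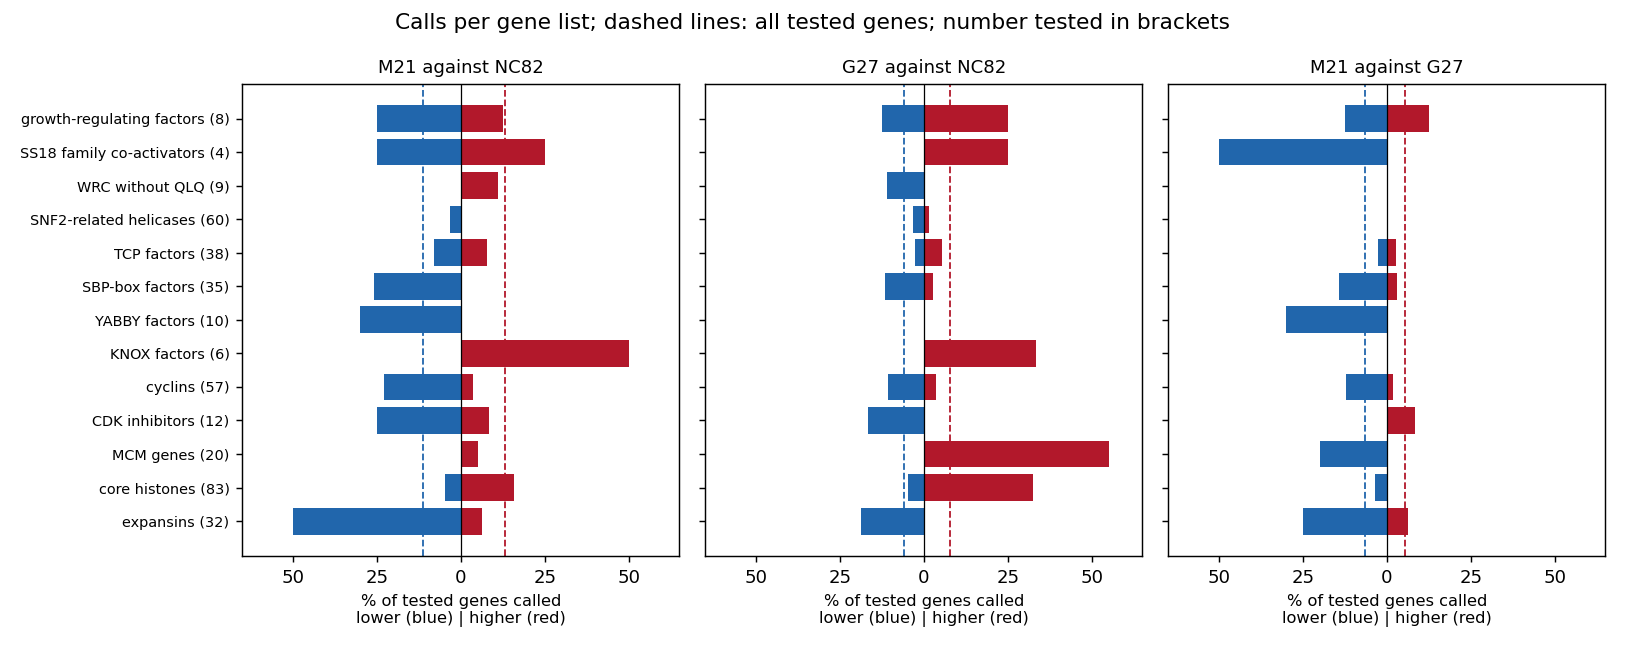
Percentage of tested genes called higher (red, right) or lower (blue, left) by limma in each list and comparison, with the number of tested genes in brackets and dashed lines for all tested genes. The 8 growth-regulating factors, with 3, 3 and 2 calls, stand on the top row, and the MCM genes show 11 of 20 higher in G27 against NC82.

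Other cell types were read from their markers. Kinesins, many of which act in dividing cells, summed to 330 to 419 in M21, 358 to 433 in G27 and 344 to 382 in NC82, with 1 of 58 up and 7 down in M21 and 2 up and 3 down in G27. MADS-box genes, which include the floral organ factors, summed to 273 to 303 in M21, 252 to 274 in G27 and 261 to 283 in NC82, with 9 of 37 up and 5 down in M21 and 4 up and 4 down in G27. Among all tested genes 13.0% were called higher and 11.3% lower in M21, and 7.87% higher and 6.05% lower in G27. The 12.1% of kinesins lower in M21 and the 5.17% lower in G27 are near these shares. Rubisco small subunits summed to 41420 to 44649 in M21, 44647 to 46654 in G27 and 40481 to 44548 in NC82, so G27 lay just above NC82. Limma called 0 of 11 higher and 1 lower in M21, and 0 in G27, with 2 there at an unadjusted p under 0.05. Genes of photosystem II summed to 28319 to 30255 in M21, 26573 to 28130 in G27 and 27760 to 28164 in NC82. Every M21 library lay above every NC82 library in this sum, but of 67 tested genes 5 rose and 11 fell in M21. In G27 0 rose and 3 fell. The part of leaf age or of cell make-up in the changes of the growth-regulating factors was not tested.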

How the data were processed

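RNA from young leaves was measured in 9 libraries, 3 for each of M21, G27 and NC82. Columns were matched to genotypes by their labels. HISAT2, StringTie and RSEM are the tools listed, per the submitters' processing notes. For their versions, order and settings, the genome build and the use of strand, the answer is not given in the sources used here. Each library had a column of normalized expression signal in the deposited table, and its header names no unit. Library sums of 771390 to 790816 show scaling for depth. Genes above 0 in 1 library only (2966 genes) had values spread from 0.02 (5th percentile) to 1.11 (95th percentile), so a low value has no step common to all genes, as it would without scaling per gene. Whether the unit is TPM or FPKM was not settled. Sparse genes shared with NC82 replicate 1 put relative depths between 0.818 and 1.184, but only 13.0% to 25.8% of their ratios lay within 5 percent of the median, so no reads were recovered and no counting interval is given.

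Tested genes reached 1 in 3 or more libraries. The log2 of the value plus 1 was fitted for all 9 libraries with limma 3.58.1 in R 4.3.3 (empirical Bayes with a mean trend), two-sided, with Benjamini-Hochberg adjustment over all 33188 genes and a call at an adjusted p under 0.05. Fold changes on this scale understate those of low genes. The fit was tested on simulated data. Alternatives changed the pseudocount, filter, scaling, samples, replicate block, trend and libraries. Leaving out a library kept the same genes in the fit. Lists are word patterns on the descriptions. Those for TCP, SBP-box, KNOX, cyclin and histone genes were narrowed after the descriptions, but not the values, had been read, because they also took chaperonins, channels and other proteins. The pattern for root endodermis (Casparian strip membrane protein) matched no gene. The members and lists were chosen with earlier results of these data known. Named were all members, all tested SS18 genes, per list at most 1 called gene in each direction and comparison with the smallest p, and for each called member the 2 tested genes with the most similar profile. Other genes are named where a count or the level filter singles them out. Figures were drawn with Python 3.11.15 and matplotlib 3.10.9.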

Additional observations from a re-analysis of the deposited data

Results flagged for a closer look

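For 2 growth-regulating factors the change in M21 against NC82 differed from the change in G27 against NC82, by the limma test of M21 against G27. Nitab4.5_0005167g0090 had log2 changes of -0.03 in M21 and 1.10 in G27, and the difference was -1.13 (limma adjusted p = 0.0014). It passed the level filter in 3 G27 libraries and in 0 M21 and NC82 libraries, so it had to differ, and this p-value is no support. Nitab4.5_0001033g0050 had log2 changes of 0.48 in M21 and 0.04 in G27, and the difference was 0.44 (limma adjusted p = 0.041), which 9 of 18 alternatives kept.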

How the results depend on the processing

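Over the 8 members and 3 comparisons, 386 alternative values kept their direction where called and their side of the threshold, 27 lost a call, 1 gained one and 0 turned a call round. The counts of called members were 3 in M21 against NC82, 3 in G27 against NC82 and 2 in M21 against G27. Leaving out 1 library gave 1 to 3 (1 without NC82 replicate 2), 1 to 3 (1 without NC82 replicate 3) and 1 to 2. Without the 3 libraries that stand apart together the count in G27 against NC82 was 1. With a filter at 5 in 3 libraries only the leading pair was left to test. The counts were then 2 in M21 against NC82, 0 in G27 against NC82 and 1 in M21 against G27. Of the 19264 genes tested with that filter, 3025 were called in G27 against NC82. In G27 against NC82, 0 of that pair had an unadjusted p under 0.05 by limma. The count in M21 against G27 was 1 with no filter and 1 with only the 2 groups compared. Among all tested genes, the calls in M21 against G27 ranged from 2301 (without M21 replicate 1) to 4185 over the fits without 1 library. A replicate block kept the counts at 3, 3 and 2. The labels give the libraries of each genotype the numbers 1 to 3, but deviations of same-numbered libraries correlated between -0.215 and 0.343, so the numbers were not taken to pair them. Read depth behind the values near 1 is not known, which limits the 3 lowest members and the 16 genes below the filter most.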

Other observations

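The table also holds 1 gene with a QLQ domain and no WRC domain, Nitab4.5_0027751g0010, which was too low to be tested at the level used here. It stood at 1.49, 0.89 and 1.62 in M21, at 0.25, 0.84 and 0.52 in G27 and at 0.71, 0.2 and 0.26 in NC82.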
